A study of Homo sapiens with 6 samples.

Results

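Glycolysis splits glucose into pyruvate, and the 33 genes described here cover that route and the first steps that pyruvate can take afterwards: glucose entry, the glycolytic enzymes, the enzymes that set fructose bisphosphate levels, lactate formation and export, and the carriers, kinases and enzymes that control entry of pyruvate into mitochondria. The rule that picked them lists gene symbols and uses no measured value, although the list was drawn up with earlier results of these data known. Each symbol matched 1 of the 58336 Ensembl genes in the count table. Of the 33, 32 were abundant enough to be tested; *PDK4* had 0 counts in all 6 libraries. RNA was measured in A2780 cells, an established ovarian cancer line, after DMSO vehicle or after 48 h of 6 µM TH588. The labels give no duration for the vehicle. TH588 inhibits the nucleotide pool enzyme MTH1, and the study classes it as a mitotic MTH1 inhibitor. Each treatment had 3 libraries (replicates A, B and C), which the study describes as biological replicates. All cells grew in serum-containing medium with insulin, and all values come from this 1 line.

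Cancer cells commonly run glycolysis fast and export much of the pyruvate as lactate even when oxygen is present. Transporters bring glucose in, hexokinase traps it as glucose 6-phosphate, phosphofructokinase commits it to breakdown, and the lower enzymes recover ATP and NADH. Pyruvate is then reduced to lactate by lactate dehydrogenase, or it enters mitochondria, where pyruvate dehydrogenase makes acetyl-CoA unless a pyruvate dehydrogenase kinase switches that complex off.

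The libraries held between 28537837 and 99074175 counts, and TH588 replicate A was the shallowest. The small nucleolar RNA *SNORD3A* took 21.94% of the counts of that library and 7.68% to 12.95% of those of the others. Values are counts per 1000000 counts (CPM) of the library size scaled by TMM, a normalization that assumes that most genes do not change. Differences are log2 fold changes of TH588 over DMSO with their standard error, from the quasi-likelihood test of edgeR fitted on all 15844 tested genes, with p-values adjusted by the Benjamini-Hochberg method. A gene is said to have risen or fallen where the adjusted p was under 0.05. The 3 libraries against 3 cannot give a p under 0.1 in an exact permutation test of a single value. Because this is bulk RNA, fewer cells that express a gene and less RNA of it per cell cannot be told apart. The cells expressed little of the usual epithelial markers: *PAX8*, *WT1*, *KRT7*, *KRT8*, *KRT19*, *CDH1* and *MUC16* were too low to test, whereas the mesenchymal filament *VIM* was at 3586 CPM under DMSO and 3796 CPM under TH588. *EPCAM* rose from 0.644 to 4.74 CPM and *KRT18* from 3.56 to 6.54 CPM, whereas *CDH2* fell from 14.4 to 11.1 CPM. Of 6 fibroblast markers, 3 rose, beside 24.2% of all tested genes. The summed level of the 6 was 1591 to 1919 CPM under DMSO and 1882 to 2622 CPM under TH588, nearly all of it *COL3A1*. The summed blood markers ranged over 1.28 to 1.71 and 1.74 to 2.39 CPM, with *CD3E* and *HBB* at 0. The summed endothelial markers stayed at or below 0.15 CPM. The part of these markers in the results was not tested.

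After TH588, most genes of the route were lower. Of the 32 tested genes 22 fell, 4 rose (*PFKFB2*, *ALDOC*, *ENO2* and *PDK2*) and 6 did not pass the test (*HK1*, *PFKM*, *PFKFB4*, *ALDOA*, *SLC16A3* and *PDK3*). Among all tested genes 49.6% changed, 24.2% upward and 25.3% downward. The median log2 fold change of the 32 genes was -0.37, beside 0.02 for all tested genes. The groups did not overlap for 26 of the 32 genes, beside 57.7% of all tested genes, and in 21 of these the TH588 libraries were the lower ones; the groups separated in that direction for 29.0% of all tested genes. Part of the background depends on abundance. Of the 6687 genes whose mean log2 CPM reached 4, 41.9% fell, and 19 of the 24 glycolysis and pyruvate genes above that level fell. Of the 8 tested genes below it 3 fell and 2 rose, where 13.2% of all 9157 tested genes fell and 26.6% rose.

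Summed over all 33 genes, the level was 17635, 18474 and 18917 CPM in the DMSO libraries and 11816, 12166 and 11584 CPM in the TH588 libraries. The groups were far apart, and the means were 18342 ± 651 and 11856 ± 293 CPM (SD, n = 3 each). Their ratio was 0.646, with the smallest p that the exact two-sided permutation test allows (0.1). The scaling matters for the small changes. With library size alone in place of TMM, 13 genes of the route fell instead of 22 and 5 rose; in that fit the median of all genes moved from 0.02 to 0.13 and 60.4% of all called genes were higher, against 48.9%. The 9 genes whose call was lost were *SLC2A3*, *PFKL*, *PFKFB3*, *GAPDH*, *PKM*, *PDHB*, *PC*, *MPC1* and *MPC2*. The 6 genes with at least a 2-fold change, *SLC2A1*, *HK2*, *LDHA*, *ALDOC*, *ENO2* and *PDK2*, passed in every setting run.

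**Figure D1:**
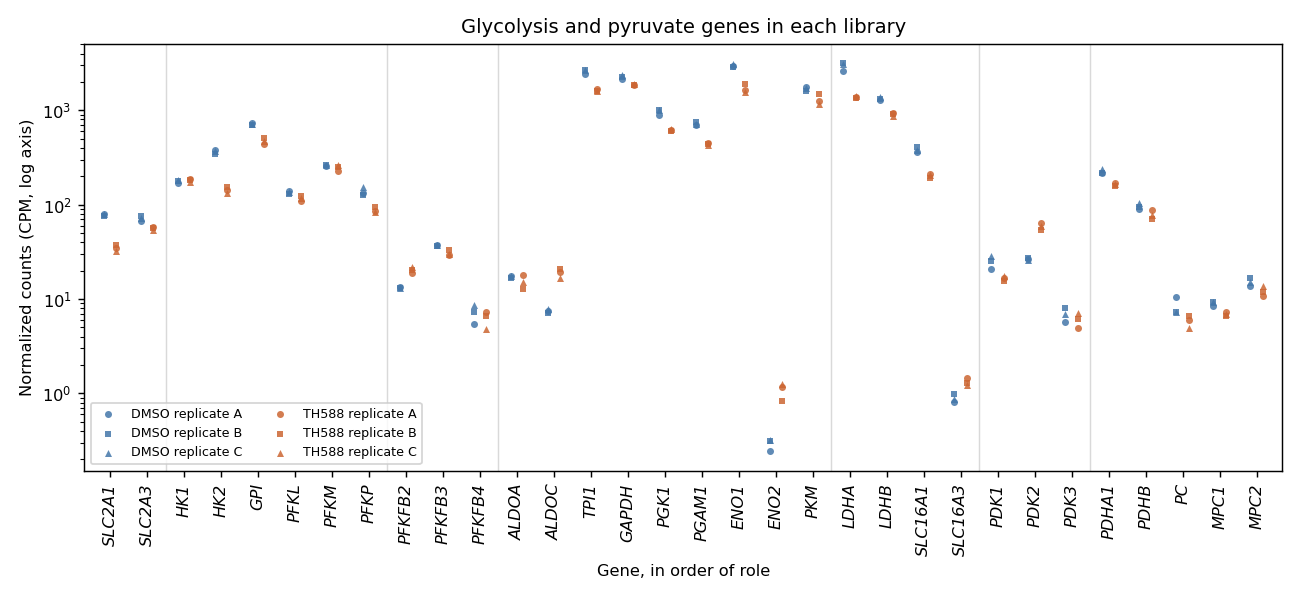
Normalized counts in CPM (log axis) of the 32 tested genes in each library, with the genes in order of role (grey lines separate the roles), DMSO in blue and TH588 in orange. The DMSO points of SLC2A1, HK2, LDHA and SLC16A1 lie above all TH588 points, and those of PFKFB2, ALDOC, ENO2 and PDK2 lie below them.

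The promoters of the 6 genes that changed at least 2-fold are shown so that the genes that fell can be set beside those that rose. Each line gives the 250 bases before the RefSeq start (build GRCh38.p14), written 5′ to 3′ on the strand of the gene. Capitals mark ACGTG and GCGTG on either strand (CACGT and CACGC on the other strand). Both are forms of the core of the hypoxia response element. CACGTG, the palindromic E-box bound by Myc and by the glucose-sensing MondoA and ChREBP, contains ACGTG.
SLC2A1, chr1:42958869-42959118, minus strand: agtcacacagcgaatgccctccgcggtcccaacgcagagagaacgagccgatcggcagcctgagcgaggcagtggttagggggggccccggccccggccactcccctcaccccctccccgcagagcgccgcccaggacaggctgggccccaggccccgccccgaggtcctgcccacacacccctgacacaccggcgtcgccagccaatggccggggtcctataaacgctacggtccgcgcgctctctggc
HK2, chr2:74833877-74834126, plus strand: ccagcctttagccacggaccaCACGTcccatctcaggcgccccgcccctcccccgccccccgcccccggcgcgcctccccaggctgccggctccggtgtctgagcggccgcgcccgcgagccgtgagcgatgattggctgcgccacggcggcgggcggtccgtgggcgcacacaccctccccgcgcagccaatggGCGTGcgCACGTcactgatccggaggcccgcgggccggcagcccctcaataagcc
LDHA, chr11:18394313-18394562, plus strand: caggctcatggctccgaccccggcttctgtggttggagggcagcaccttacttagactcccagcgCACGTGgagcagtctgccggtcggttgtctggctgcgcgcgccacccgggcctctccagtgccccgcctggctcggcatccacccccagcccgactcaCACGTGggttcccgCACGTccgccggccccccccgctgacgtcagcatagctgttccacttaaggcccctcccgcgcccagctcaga
ALDOC, chr17:28576896-28577145, minus strand: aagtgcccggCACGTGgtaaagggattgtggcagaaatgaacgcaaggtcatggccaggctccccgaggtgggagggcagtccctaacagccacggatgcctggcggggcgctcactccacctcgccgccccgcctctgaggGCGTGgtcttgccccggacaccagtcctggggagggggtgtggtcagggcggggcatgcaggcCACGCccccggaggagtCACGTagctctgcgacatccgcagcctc
ENO2, chr12:6914330-6914579, plus strand: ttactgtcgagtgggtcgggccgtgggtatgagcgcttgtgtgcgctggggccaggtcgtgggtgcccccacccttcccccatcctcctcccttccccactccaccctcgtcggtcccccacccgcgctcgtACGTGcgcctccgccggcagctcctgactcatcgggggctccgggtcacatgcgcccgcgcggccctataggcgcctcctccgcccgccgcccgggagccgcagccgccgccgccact
PDK2, chr17:50095101-50095350, plus strand: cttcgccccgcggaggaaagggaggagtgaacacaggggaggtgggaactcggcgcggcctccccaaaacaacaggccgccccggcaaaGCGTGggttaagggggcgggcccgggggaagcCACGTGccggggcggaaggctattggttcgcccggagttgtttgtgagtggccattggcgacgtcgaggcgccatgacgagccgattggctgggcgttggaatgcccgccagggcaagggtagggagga

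The *SLC2A1* stretch, which belongs to a gene that fell, held none of these letters. That of *LDHA*, which also fell, held CACGTG at 2 places, and the promoters of *ALDOC* and *PDK2*, which rose, each held CACGTG at 1 place. *HK2* held ACGTG and GCGTG but no CACGTG, and *ENO2* held 1 ACGTG. Of the 33 genes, 30 had a promoter window, all except *SLC2A3*, *SLC16A1* and *PFKFB2*. ACGTG was present in 15 of the 30 (50.0%), in 23.1% of the windows of 10828 tested genes and in 18.5% of all 35116 windows. CACGTG was present in 6 of the 30, in 8.8% of the windows of tested genes and in 6.3% of all windows. GCGTG was no more frequent than elsewhere among tested genes, at 12 of 30 (40.0%) against 46.4%, with 32.2% over all windows. At least 1 of ACGTG and GCGTG was present in 21 of 30 (70.0%), against 58.0% for tested genes and 43.2% over all windows. Of the 20 genes that fell and had a window 9 held ACGTG and 4 held CACGTG, and of the 3 that rose 3 held ACGTG and 2 held CACGTG; with so few genes the difference was not tested. The windows were rich in G and C, with a median of 71.2% against 65.6% for tested genes; the shares were not matched for this.

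Both glucose transporters fell, where 25.3% of all tested genes fell. *SLC2A1* (ENSG00000117394, chromosome 1, 42925375 to 42959176 on GRCh38) encodes GLUT1, the common transporter of proliferating cells, and was measured at 79.7, 75.5 and 79.1 CPM in the DMSO libraries (in the order A, B, C, as in all such series of values) and at 34.7, 37.7 and 32.4 CPM in the TH588 libraries. Every TH588 library was below every DMSO library, and the level fell 2.23-fold (log2 fold change -1.16, standard error 0.08, adjusted p = 4.72e-07). *SLC2A3* encodes GLUT3, a transporter with high affinity, and went from 67.9, 76.7 and 71.9 CPM to 57.8, 56.8 and 54.5 CPM. These groups did not overlap either, but the fall was smaller (log2 fold change -0.36, standard error 0.08, adjusted p = 0.00248). *SLC2A3* shares sequence with pseudogene copies, whose rows held at most 2.62% of its count in any library. Only rows named as pseudogenes of a gene of the set were looked at. The treatment of multiply mapped reads is not given, so such shares do not show how many reads were lost. Per kilobase of exon, *SLC2A1* made up 58.5% ± 2.16 of the reads of the pair under DMSO and 44.6% ± 1.51 under TH588 (SD, n = 3 each), so that *SLC2A3* became the more abundant of the pair.

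At the hexose steps 4 of 6 genes fell, and the isozymes of a step differed. *HK2* (ENSG00000159399, chromosome 2, 74833981 to 74893359), the hexokinase that many tumours induce, was at 379, 345 and 375 CPM under DMSO and at 143, 155 and 133 CPM under TH588. No library of one group came near the other, and the 2.55-fold fall was the steepest of the 32 tested genes (log2 fold change -1.35, standard error 0.09, adjusted p = 2.1e-07). *HK1*, the housekeeping hexokinase, was at 176 ± 5.88 CPM under vehicle and at 181 ± 7.27 CPM under drug (SD, n = 3 each), and its groups overlapped (log2 fold change 0.04, standard error 0.08, adjusted p = 0.709). The ratio of *HK2* to *HK1* per kilobase is independent of scaling; it was 2.62-fold lower under TH588 in the geometric mean, and *HK2* went from 68.3% ± 1.56 to 45.1% ± 1.42 of the pair (SD, n = 3 each; exact two-sided permutation p = 0.1, 0.136 after adjustment over 15 pairs of isozymes, subunits or enzymes that share a substrate).

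Phosphofructokinase has a platelet, a liver and a muscle isozyme. *PFKP*, the platelet type, was at 132, 126 and 154 CPM under DMSO and at 85.6, 93.7 and 83.7 CPM under TH588. The groups were separate (log2 fold change -0.65, standard error 0.09, adjusted p = 9.95e-05). *PFKL*, the liver type, changed little and lay near the threshold (log2 fold change -0.21, adjusted p = 0.0444), and it lost its call in 10 of the settings run, including the fits without DMSO replicate A, B or C and without TH588 replicate A or C. *PFKM*, the muscle type, had overlapping groups (log2 fold change -0.06, adjusted p = 0.596), and its sign turned with library size alone (0.05) and without TH588 replicate A (0.01). *PFKM* went from 44.9% ± 1.87 to 52.2% ± 1.96 of the family's reads per kilobase while *PFKP* went from 36.0% ± 2.27 to 27.8% ± 1.65 (SD, n = 3 each). *GPI*, which turns glucose 6-phosphate into fructose 6-phosphate and has no isozyme, fell from 721 ± 19.1 to 477 ± 38.2 CPM (SD, n = 3 each; log2 fold change -0.60, adjusted p = 8.01e-05).

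The bifunctional PFKFB enzymes make and remove the strongest activator of phosphofructokinase, and they did not move together. *PFKFB2*, a form regulated by insulin-responsive kinases, was at 13.3, 13.0 and 13.1 CPM under DMSO and at 18.8, 20.5 and 21.7 CPM under TH588. Every TH588 library was above the DMSO libraries (log2 fold change 0.64, standard error 0.10, adjusted p = 0.000202). *PFKFB3*, a form with high kinase activity, went from 37.2, 36.9 and 37.5 CPM to 29.6, 32.9 and 29.7 CPM. Its groups did not overlap (log2 fold change -0.27, standard error 0.08, adjusted p = 0.0147), but the call was lost without DMSO replicate A (adjusted p = 0.0665), DMSO replicate C (0.0764) or TH588 replicate C (0.0693), all from edgeR. *PFKFB4* ranged over 5.49 to 8.58 CPM under DMSO and 4.84 to 7.36 CPM under TH588 and did not pass (adjusted p = 0.393). The sum of the 3 genes was 57.4 ± 1.6 CPM and 57.3 ± 2.3 CPM (SD, n = 3 each), while *PFKFB2* went from 15.1% ± 0.59 to 24.9% ± 2.23 of their reads per kilobase.

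**Figure D2:**
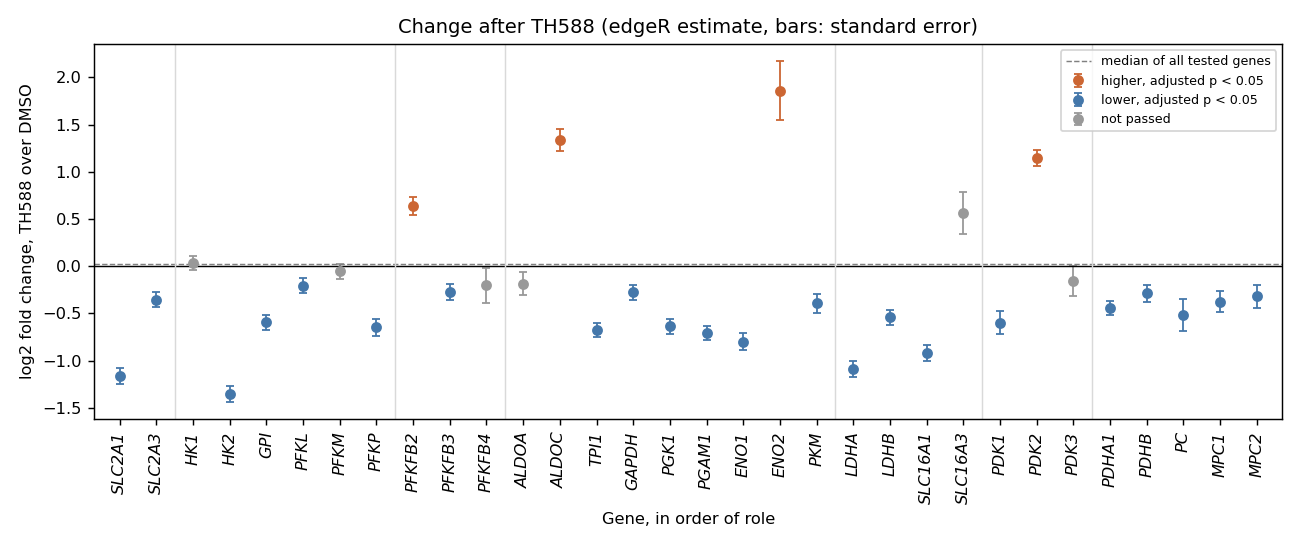
Log2 fold change of TH588 over DMSO for the 32 tested genes in order of role, with the standard error from edgeR as bars and the median of all tested genes as a dashed line. Blue genes fell, orange genes rose and grey genes did not pass; HK2 is lowest at -1.35 and ENO2 highest at 1.86.

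The most abundant RNAs of the set belonged to the later part of the route, from aldolase to lactate. *TPI1*, *GAPDH*, *ENO1*, *LDHA* and *LDHB* led under DMSO, in that order, at 966 ± 49.0, 758 ± 36.2, 566 ± 15.5, 474 ± 45.5 and 444 ± 14.8 reads per kilobase of exon on the CPM scale (RPKM; SD, n = 3 each). The last 2 did not differ beyond their spread. RPKM divides by the length of all annotated exons of a gene, so this order depends on the annotation. In CPM under DMSO, *ENO1* (2984), *LDHA* (2945), *TPI1* (2607), *GAPDH* (2260) and *PKM* (1711) led, in that order. With TH588, *GAPDH* (625 ± 7.57 RPKM) and *TPI1* (604 ± 20.8 RPKM) were level within about 1 SD, *ENO1* (325 ± 34.8 RPKM) and *LDHB* (305 ± 12.8 RPKM) did not differ beyond their spread, and *LDHA* followed at 223 ± 6.60 RPKM.

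Of the 9 genes from aldolase to pyruvate kinase, 6 fell, 2 rose and *ALDOA* did not pass. *GAPDH*, the dehydrogenase that yields NADH and a frequent reference gene, was at 2156, 2252 and 2371 CPM under DMSO and at 1870, 1840 and 1884 CPM under TH588. The groups were separate but the fall was small (log2 fold change -0.28, standard error 0.08, adjusted p = 0.00938), and it did not pass without DMSO replicate C (adjusted p = 0.0729 from edgeR) or with library size alone (0.137). *PKM*, the pyruvate kinase of most dividing cells, was at 1774, 1621 and 1738 CPM and then at 1242, 1483 and 1177 CPM (log2 fold change -0.40, standard error 0.10, adjusted p = 0.00449). Its groups were also separate; reads per gene do not tell its M1 and M2 splice forms apart. The other 4 fell more: *ENO1* (log2 fold change -0.80), *PGAM1* (-0.71), *TPI1* (-0.68) and *PGK1* (-0.64), with adjusted p-values from 1.03e-05 to 4.2e-05. *ENO1*, *PGAM1*, *TPI1* and *PGK1* encode the enolase, the mutase, the triose isomerase and the kinase of this stretch. Pseudogene rows of the set numbered 111, of which 13 could be tested; none rose and only *HK2P1* fell, and apart from those of *SLC2A3* they held at most 0.339% of the count of their parent.

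The isozymes that rose here are known from brain and were scarce. *ALDOC* (ENSG00000109107, chromosome 17, 28573115 to 28577264), the aldolase of brain, was at 7.53, 7.06 and 7.93 CPM under DMSO and at 19.5, 20.6 and 16.7 CPM under TH588. The TH588 libraries were all above the DMSO libraries, and the rise was 2.52-fold (log2 fold change 1.33, standard error 0.12, adjusted p = 2.02e-06). *ENO2* (ENSG00000111674, chromosome 12, 6913745 to 6923698), the neuronal enolase, rested on 20, 26 and 30 counts under DMSO and on 31, 90 and 104 counts under TH588, that is 0.243, 0.315 and 0.320 CPM and then 1.16, 0.827 and 1.25 CPM. It rose 3.63-fold (log2 fold change 1.86, standard error 0.31, adjusted p = 0.000375), yet remained at 0.25 ± 0.05 RPKM beside 325 ± 34.8 RPKM for *ENO1*. *ENO3*, the muscle enolase, which is not among the 33 genes and was chosen after its values were seen, rose from 47.0 to 77.1 CPM (log2 fold change 0.71, adjusted p = 1.22e-05).

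*ALDOA*, the main aldolase of most tissues, was listed at only 17.3 ± 0.53 CPM under DMSO and 15.3 ± 2.50 CPM under TH588 (SD, n = 3 each), with overlapping groups (adjusted p = 0.229). Of its exon bases, 53.5% also belong to 2 other annotated genes, and both of these were at 0 in every library except for 1 of them in TH588 replicate B (0.0184 CPM). How reads in shared exons were counted is not given in the sources used here, so the level of *ALDOA* and its ratio to *ALDOC* are uncertain. Without TH588 replicate A, *ALDOA* passed (log2 fold change -0.29, adjusted p = 0.0462). Exon overlap of at least 10% concerned 7 of the 33 genes. *PDK2* shares 38.6% of its exon bases with *SAMD14* on the opposite strand (0.357 and 0.545 CPM, adjusted p = 0.219), *PDHA1* 21.3% with *MAP3K15* (7.99 and 8.85 CPM, adjusted p = 0.299) and *MPC2* 22.5% with *DCAF6*, which rose from 158 to 218 CPM (adjusted p = 0.000292). *GAPDH* (14.2%), *PC* (10.5%) and *ALDOC* (10.1%) were the others.

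Lactate formation and export had the lowest ratio of summed levels, TH588 over DMSO, of any role. Summed over 4 genes, the level was 4270, 4877 and 4816 CPM under DMSO and 2530, 2451 and 2508 CPM under TH588, a ratio of 0.536. *LDHA* (ENSG00000134333, chromosome 11, 18394388 to 18408425) encodes the subunit that favours lactate formation and was at 2621, 3145 and 3067 CPM under DMSO and 1368, 1352 and 1429 CPM under TH588. All TH588 libraries lay far below, and the level fell 2.13-fold (log2 fold change -1.09, standard error 0.09, adjusted p = 1.17e-06). *LDHB* encodes the subunit associated with lactate use and fell less, from 1324 ± 44.2 to 909 ± 38.1 CPM (SD, n = 3 each; log2 fold change -0.54, adjusted p = 9.21e-05). *LDHA* thus went from 49.5%, 53.4% and 51.8% to 41.0%, 41.7% and 44.1% of the pair's reads per kilobase, without overlap (exact two-sided permutation p = 0.1). The size of these shares depends on the annotated exon lengths. In CPM, *LDHA* stayed above *LDHB* in both groups.

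*SLC16A1* encodes MCT1, which carries lactate and pyruvate across the plasma membrane, and was at 364, 414 and 377 CPM under DMSO and 213, 191 and 206 CPM under TH588. The groups were separate, with a 1.89-fold fall (log2 fold change -0.92, standard error 0.08, adjusted p = 2.57e-06). *SLC16A3* encodes MCT4, the exporter typical of strongly glycolytic cells, and was scarce, at 0.815, 0.994 and 0.865 CPM and then at 1.46, 1.30 and 1.23 CPM. Its 3 TH588 values were all higher, but the gene missed the threshold (log2 fold change 0.56, standard error 0.23, adjusted p = 0.0564); it passed with library size alone (0.0297) and with at least 10 counts in every library (0.0425). Per kilobase *SLC16A1* held 99.9% and 99.6% of the reads of this pair.

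**Figure D3:**
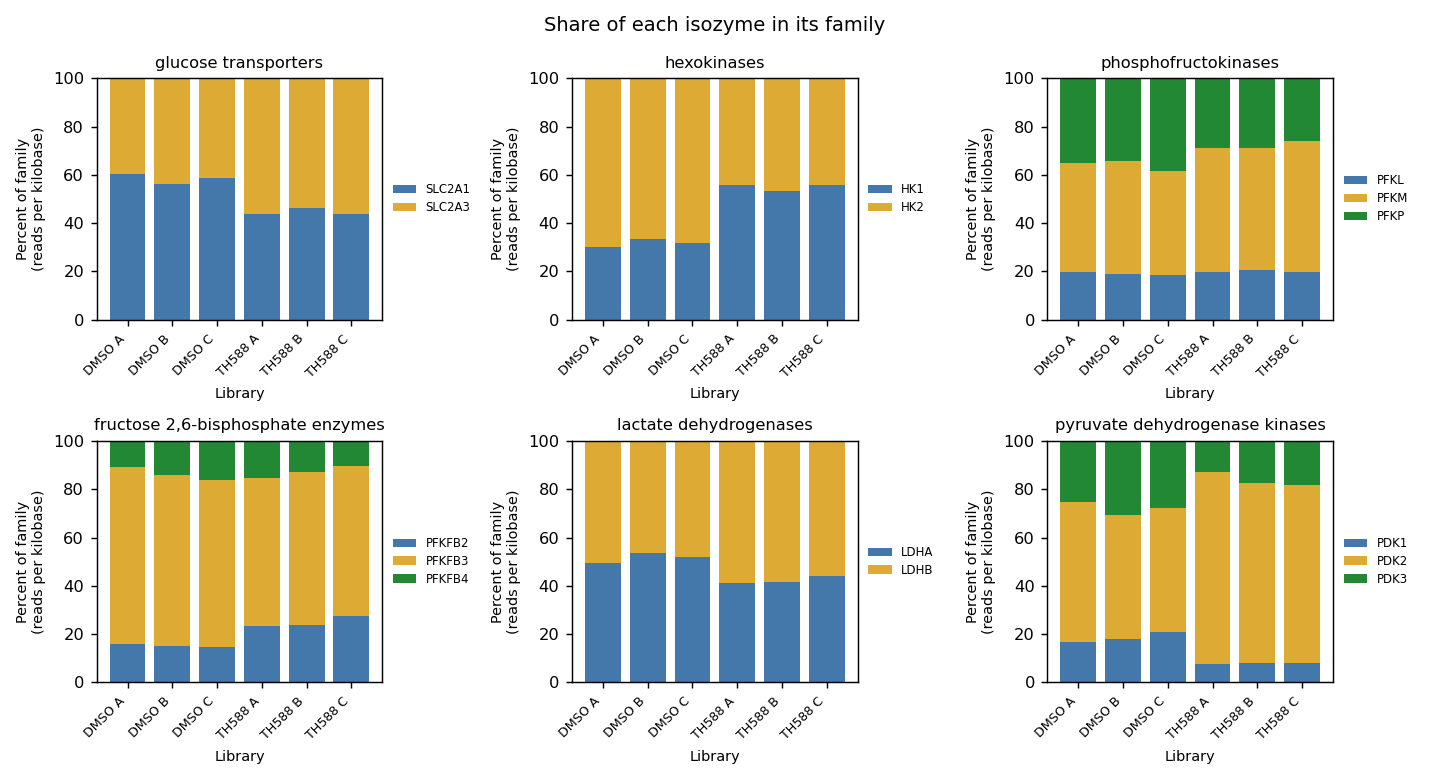
Percent of the reads per kilobase of exon that each isozyme took within its family, 1 bar per library, for 6 families that add to 100%. The HK2, SLC2A1, LDHA and PDK1 shares are smaller in every TH588 library than in every DMSO library, and the PDK2 and PFKFB2 shares are larger.

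The pyruvate dehydrogenase kinases phosphorylate and inhibit the pyruvate dehydrogenase complex. Of the 3 that could be tested 1 rose, 1 fell and 1 did not pass, where 24.2% of all tested genes rose and 25.3% fell. *PDK2* (ENSG00000005882, chromosome 17, 50094737 to 50112152), the most widely expressed form, was at 26.3, 27.4 and 26.0 CPM under DMSO and at 63.6, 53.7 and 59.0 CPM under TH588. It rose 2.21-fold with no overlap (log2 fold change 1.14, standard error 0.09, adjusted p = 6.67e-07). *PDK1*, a hypoxia-inducible form, went from 20.8, 25.5 and 28.9 CPM to 16.7, 15.4 and 17.6 CPM. These groups were separate too (log2 fold change -0.60, standard error 0.12, adjusted p = 0.00149). *PDK3* ranged over 5.68 to 7.96 CPM and 4.97 to 7.08 CPM (adjusted p = 0.445), and *PDK4*, the form induced by fasting, had 0 counts, which allows up to 3 counts per library or 0.0276 to 0.112 CPM. *PDK2* thereby went from 53.6% ± 3.64 to 76.0% ± 3.14 of the family's reads per kilobase and *PDK1* from 18.5% ± 2.17 to 7.91% ± 0.20 (SD, n = 3 each). The summed level of the kinases was 58.5 ± 5.0 CPM under DMSO and 81.5 ± 5.4 CPM under TH588, the only role with a ratio above 1 after TMM scaling (1.391).

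All 5 genes for entry and use of pyruvate in mitochondria fell, by small amounts, where 25.3% of all tested genes fell. Of these 5 only *PDHA1* fell in every setting run. *PDHA1*, the catalytic alpha subunit of pyruvate dehydrogenase, was at 214, 218 and 239 CPM under DMSO and at 171, 159 and 164 CPM under TH588. The groups did not overlap (log2 fold change -0.44, standard error 0.08, adjusted p = 0.000525). *PC*, the carboxylase that makes oxaloacetate from pyruvate, was low, at 10.4, 7.21 and 7.38 CPM and then at 6.02, 6.60 and 4.90 CPM. DMSO replicate A stood above the other libraries, and without it the call was lost (log2 fold change -0.51 with all libraries, standard error 0.17, adjusted p = 0.0235; adjusted p = 0.138 without it and 0.127 without TH588 replicate C). *PDHB*, the beta subunit (log2 fold change -0.29, adjusted p = 0.0223), and the mitochondrial pyruvate carrier subunits *MPC1* (-0.38, adjusted p = 0.0159) and *MPC2* (-0.32, adjusted p = 0.0485) were also close to the threshold. *PDHB* did not pass without DMSO replicate B or C or without TH588 replicate B or C (adjusted p = 0.0635 to 0.149). *MPC1* did not pass without DMSO replicate C (0.0674) or TH588 replicate B (0.0511), and *MPC2* did not pass without any 1 of 4 libraries: DMSO replicate B (0.163) or C (0.112) and TH588 replicate A (0.133) or B (0.102). Among the 22 genes that fell, only *MPC2* had overlapping groups.

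Other genes of the pathway did not follow the same direction. Of 32 further glycolysis genes, mostly tissue-restricted isozymes and transporters, 26 could be tested, and 13 rose and 4 fell. Among all tested genes 24.2% rose and 25.3% fell. The largest rises were in genes of very low level: *GCKR*, the glucokinase regulator (5 counts in DMSO replicate C and 0 in the other DMSO libraries), *SLC2A12*, a glucose transporter (0.489 to 5.25 CPM), and *HK3* (0.0639 to 0.248 CPM). *TIGAR*, which removes the activator made by PFKFB enzymes, rose from 25.2 ± 1.19 to 52.5 ± 4.03 CPM (SD, n = 3 each; log2 fold change 1.06, adjusted p = 1.26e-06). *PGM1*, which links glycogen to glucose 6-phosphate, fell most (84.5 to 37.3 CPM; log2 fold change -1.17), followed by *ADPGK* (-0.67) and *SLC2A13* (-0.34). Within the pyruvate dehydrogenase complex and its phosphatases, *DLAT* (log2 fold change -0.79) and *PDPR* (-0.47) fell, whereas the phosphatases *PDP2* (1.10) and *PDP1* (0.67), which oppose the kinases, rose. Of 4 tested gluconeogenesis genes 2 rose, *PCK2* (0.60) and *G6PC3* (0.32), and none fell.

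In the citric acid cycle 9 of 16 tested genes fell and 1 rose, with *FH* at -1.02, *SUCLG1* at -0.80 and *IDH3A* at -0.72 on the log2 scale, and *SDHC* at 0.30. In the pentose phosphate pathway 4 of 8 fell, led by *RPIA* (-0.57), *RPE* (-0.56) and *TALDO1* (-0.39), while *H6PD* (0.78) and *PGLS* (0.55) rose. Of 9 genes that move NADH equivalents into mitochondria 5 fell, led by *GPD2* (-0.79), *SLC25A12* (-0.77) and *GOT2* (-0.58), and *GOT1* rose (0.37). Every tested gene of the cycle, pentose phosphate and NADH lists except *GPD1* had a mean log2 CPM of at least 4. At that level 41.9% of all tested genes fell. Targets of hypoxia-inducible factor outside glycolysis went both ways. Of 21 tested genes 7 fell, led by *CA12* (-1.34), *BNIP3* (-1.01) and *EGLN1* (-0.67), and 6 rose, among them *MXI1* (1.51) and *ADM* (1.34). Among all tested genes 25.3% fell and 24.2% rose, and the counts of the hypoxia targets were near these shares.

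Among 14 tested regulators 5 rose and 1 fell, beside 24.2% and 25.3% of all tested genes. *ARRDC4* rose from 3.35 to 23.2 CPM (log2 fold change 2.79, adjusted p = 2.72e-08) and *TXNIP* from 14.7 ± 0.23 to 61.3 ± 3.13 CPM (SD, n = 3 each; log2 fold change 2.06, adjusted p = 1.4e-08); both encode arrestin-like proteins known to restrain glucose uptake and to be induced by MondoA. *MLXIPL*, which encodes ChREBP, rose (0.86), and *MLXIP*, which encodes MondoA itself, fell (-0.54). *HIF1A* (log2 fold change -0.13, adjusted p = 0.222) and *MYC* (0.18, adjusted p = 0.0762) did not pass; these are RNA levels and say nothing of the amount or activity of the proteins.

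**Figure D4:**
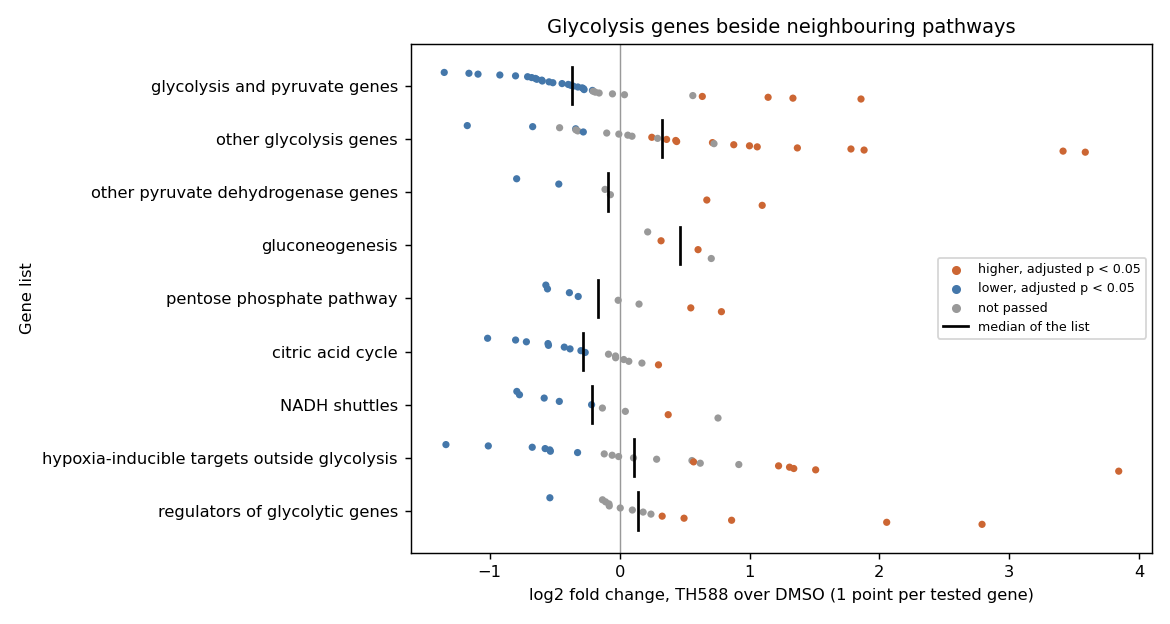
Log2 fold change of TH588 over DMSO for each tested gene of the glycolysis and pyruvate set and of 8 neighbouring lists (1 point per gene; blue fell, orange rose, grey did not pass; black bar, median of the list). The median of the glycolysis and pyruvate set is -0.37, that of the citric acid cycle -0.28 and that of the other glycolysis genes 0.33.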

How the data were processed

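RNA from 3 DMSO and 3 TH588 samples was converted into TruSeq libraries, per the labels. The authors aligned reads with TopHat to GRCh38 and counted them per gene with featureCounts 1.4.6, and deposited raw counts with the exon length of each gene (other values in the same deposited table); strand setting and treatment of multiply mapped reads are not given in the sources used here. Here, counts were tested with edgeR 4.0.16 in R 4.3.3 (TMM, default filter, quasi-likelihood test, Benjamini-Hochberg over all tested genes, adjusted p under 0.05, no block). Standard errors were derived from the F statistic of that test. Total counts ranged from 28537837 to 99074175; limits for 0 counts cover counting error only. Ratios between isozymes, subunits or enzymes that share a substrate used reads per kilobase with a pseudocount of 0.5 and exact two-sided permutation tests. Levels and shares per kilobase depend on the annotated exon lengths, whereas the change of a log2 ratio does not. Values in each library are given for the 2 genes of each role with the largest change, for those with at least a 2-fold change that passed, and for GAPDH, PKM and LDHA; from each other list the text names up to 3 genes per direction, and TIGAR; some genes of these lists are not reported here. Members and lists were chosen with earlier results of these data known. Alternatives were other scalings, filters, DESeq2 1.42.0, limma-voom (limma 3.58.1), a stricter threshold, omission of each library, and a replicate block. Promoter windows were those of RefSeq, 1 per gene, nearest to the MANE Select start. Some lay away from that start: PFKM by 3283 bases, PGAM1 by 1627, GAPDH by 747, PFKP by 422, HK1 by 217 and GPI by 204. Scripts were tested on simulated data in which 194 of 15567 tested genes had a set change, of which 137 were recovered. With so few changed genes, this could not check the assumption of TMM that most genes do not change. Protein sequences were not used here.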

Additional observations from a re-analysis of the deposited data

How the results depend on the processing

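The 4 genes of the route that rose did so in every setting run, and HK2, SLC2A1, LDHA, SLC16A1, ENO1, PGAM1, TPI1, PGK1, PFKP, GPI, LDHB, PDK1 and PDHA1 fell in each setting. When only total counts were scaled for (library size alone), 13 genes fell, their median log2 fold change was -0.26, and PFKM turned to 0.052; the ratio of summed levels was then 0.694 for all 33 genes, 0.652 for glucose transporters, 0.752 for the hexose steps, 1.073 for the PFKFB genes and 0.725 for the steps from aldolase to pyruvate. With 1 library left out, 16 to 21 genes fell (16 without DMSO replicate C), PFKM ranged from -0.085 to 0.010 (positive without TH588 replicate A), and 3 ratios between genes whose groups overlapped changed sign: PFKFB4 to PFKFB3 (-0.083 to 0.242, log2), MPC1 to MPC2 (-0.159 to 0.050) and PC to PDHA1 (-0.186 to 0.142). Libraries with the same letter did not deviate together (correlations of same-letter deviations of -0.07, -0.08 and 0). A fit with the replicate block called 7195 genes (20 of the route fell), and PFKL (adjusted p = 0.108) and MPC2 (0.0511) lost their call. Over all genes the count of called genes was 7852, with 5831 at an adjusted p under 0.01, where 16 genes of the route fell. The causes of these shifts were not tested. Depth limits ENO2 and SLC16A3 most, at about 1 CPM or less, and shared exons limit ALDOA, PDK2 and MPC2.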
